A study of Homo sapiens with 27 samples.

Results

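MCF10DCIS.com cells were given thick bipyramids of calcium oxalate dihydrate (TK) or plates of calcium oxalate monohydrate (COM), and messenger RNA was counted in 4 libraries of each form. The 8 libraries were taken by their titles, TK A to D and COM A to D, out of 27 libraries in the series, and the 7 untreated libraries Control A to G entered the model beside them. MCF10DCIS.com is an established human cell line, derived within the MCF10A family of breast lines and used to model ductal carcinoma in situ. Both forms were given at 0.1 mg/mL to flasks that had been seeded with 500000 cells 6 h earlier; no time from crystals to harvest is given in the sources used here. The forms differ both in hydrate and in shape, and these cannot be told apart here. Whether libraries A to D of a form were grown as separate cultures is not stated, and each p-value therefore reflects only how much these samples varied, a spread that may be technical.

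Calcium oxalate is one of the minerals found in breast microcalcifications, the deposits that mammography detects. The dihydrate, weddellite, is the form usually reported in breast tissue, and the monohydrate, whewellite, is the more stable hydrate and is common in kidney stones. Crystals of either kind can stick to epithelial cells, and the responses known from renal cells include inflammatory cytokines, stress genes and enzymes that remodel the extracellular matrix.

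The deposited names carry serial numbers that divide the libraries into runs of 1 to 10, 11 to 22 and 23 to 27, called here library sets 1, 2 and 3. All 4 TK libraries lie in set 2, with COM C and Control C to F; set 1 holds COM A and B with Control A and B, and set 3 holds COM D with Control G. The form and the set are therefore tied together apart from 1 COM library, and the controls, present in every set, were used to bridge them with a set term in the fit. The sets differed in untreated cells too, where 2394 genes were called between the controls of sets 2 and 1. Total counts were 15859690 to 18803533 in TK, 13352559 to 29912736 in COM and 13963705 to 32537829 in Control libraries. COM C stood apart from the rest of its set: it lay at 2.07 on the first principal component, against 28.3 to 32.7 for TK and 12.6 to 15.7 for Control C to F, while sets 1 and 3 lay at -39.5 to -22.5. Mitochondrial transcripts made up 5.21% of its counts, against 3.17 to 3.37% in TK and 2.56 to 3.75% in Control C to F. The part of this library in the results is given beside them, as values against COM C alone and as values without it. Keratins and other markers of the line summed to 10755 to 11796 CPM (counts scaled to library size) in TK, 9872 to 10988 in COM and 9569 to 11780 in Control, with all 12 of them detected in each group.

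Thick bipyramids and monohydrate plates left cells with different levels of matrix proteases, adhesion genes, inflammatory cytokines, chaperones and cell cycle genes. In TK cells MMP1, MMP10 and MMP9 were 6.56- to 17-fold lower than in COM cells, and DNA replication genes, mitosis genes, heat shock proteins and enzymes of cholesterol synthesis were higher. With no set term the log2 differences of MMP1, MMP10 and MMP9 were -4.61, -5.36 and -5.76, against -2.71, -3.04 and -4.09 with it. Of 15640 genes tested, 2147 (13.7%) were called at an adjusted p under 0.05, of which 1000 (6.39%) were higher and 1147 (7.33%) lower in TK. Most differences were small. The median size among called genes was 0.43 on the log2 scale, and only 166 reached 1, of which 19 were higher and 147 lower in TK. Over all genes tested the median difference was -0.01. The TK and COM libraries did not overlap in CPM for 1838 of the called genes, and for 4353 of all genes tested (27.8%).

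In library set 2, where both forms were measured without a set term, COM C alone stood for the plates and was assumed to vary like the other groups. That fit called 997 of 16254 genes (6.13%), 471 higher (2.9%) and 526 lower (3.24%) in TK. Of the 2147 genes called over all sets, 847 (39.5%) were also called against COM C alone, 390 higher and 457 lower in TK, which is 85% of the calls in set 2. Almost all of the others pointed the same way: 2136 had the same sign against COM C with all 4 TK libraries on 1 side of it. The 11 that failed this were CHAC1, STC2, SERPINB2, IGFBP3, STRA6, SHC4, CCND2, C1orf74, FUT1, NR2F2 and RFX1. COM C, the TK libraries and Control C to F are all part of the larger fit, so this is not a separate experiment. Agreement in sign among genes called in that larger fit was therefore largely fixed in advance. The same holds for the fit without COM C, which keeps all the other libraries. Without COM C the forms were bridged by controls alone; that fit called 1557 genes (9.86%), among which 1266 of the 2147 genes were found again. All but 1 of the 2147, that is 2146, kept their sign without COM C, and 564 were called in all 3 fits.

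**Figure D1:**
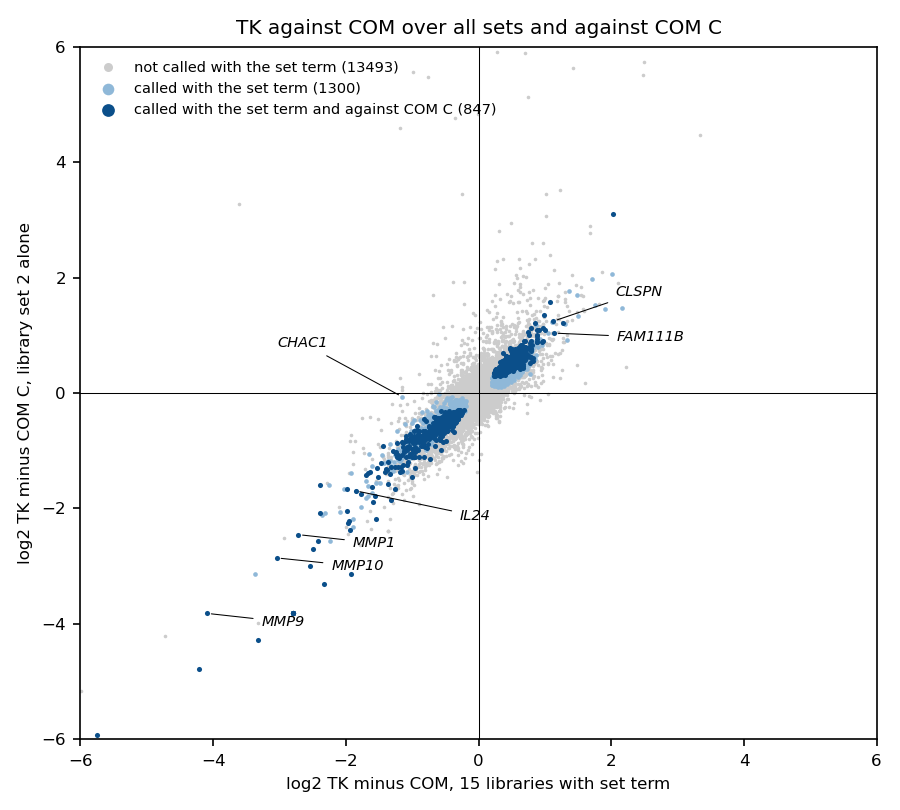
Each point is a gene tested, with the log2 difference of TK minus COM over 15 libraries with the set term on the x axis and the log2 difference of TK minus COM C within library set 2 on the y axis; both axes stop at 6 and 28 genes lie beyond them. The 847 genes called in both fits (dark) run along the diagonal, MMP9, MMP10 and MMP1 lie at the lower left, and CHAC1 lies near 0 on the y axis.

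The bridge assumes that a set shifts COM and Control libraries alike. A test of that assumption, whether COM minus Control differed between sets, called 1 gene of 15640 (0.00639%), CHAC1, and 928 had an unadjusted p under 0.05. Of the 2147 genes called between TK and COM, 216 were among those 928. That is a larger share than the 928 make of all genes tested. The test rested on 1 COM library in set 2 and on 1 COM and 1 Control library in set 3. It could therefore miss differences between sets. Each form was also set against the controls in the same fit. TK differed from Control in 2496 genes (16%), 1306 higher (8.35%) and 1190 lower (7.61%), and COM in 1478 (9.45%), 848 higher (5.42%) and 630 lower (4.03%). These 2 comparisons share their control libraries, so their values are given side by side and are not independent.

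Secreted matrix proteases and the plasminogen system had the largest median difference of the lists with at least 10 genes tested. Of 18 measured members, 13 were lower in TK than in COM and none was higher, with a median log2 difference of -0.79. MMP1, the interstitial collagenase (chr11:102789920-102798160, minus strand, in the GENCODE annotation of GRCh38, as for the genes below), had 3.03, 4.95, 2.83 and 3.57 CPM in TK A to D, against 128, 118, 19.7 and 87.3 CPM in COM A to D. Every TK library lay below every COM library, and also below the Control libraries, which ran from 14.3 to 75.4 CPM with a median of 19.8. COM C was far lower than the other COM libraries, as were Control C to F beside Control A, B and G, at 14.3 to 19.8 CPM against 61.6 to 75.4. In the fit with the set term MMP1 was 6.56-fold lower in TK, a log2 difference of -2.71 ± 0.19 (SE), with an adjusted p of 2e-06, and against COM C alone the log2 difference was -2.46 ± 0.21 (adjusted p = 0.00024).

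MMP10, stromelysin 2, lies beside MMP1 in the metalloproteinase cluster (chr11:102770503-102780628, minus strand). It had 0.699, 0.845, 0.482 and 0.968 CPM in TK A to D, against 41.6, 45.4, 5.52 and 33.0 CPM in COM A to D. The counts behind the TK values were 12, 14, 8 and 19. Its log2 difference was -3.04 ± 0.23 (adjusted p = 2.7e-06). With COM C counted in set 1 it was -2.84 and lost its call. MMP9, gelatinase B (chr20:46008908-46016561, plus strand), was rarer still, with 4, 2, 2 and 5 counts in TK A to D against 317, 219, 70 and 202 in COM A to D. In CPM these were 0.233, 0.121, 0.121 and 0.255 in TK against 11.4, 17, 2.70 and 10.8 in COM. The groups did not overlap for either gene. The fitted difference of MMP9 was -4.09 ± 0.40 on the log2 scale, with a 95% interval of -4.93 to -3.25 and an adjusted p of 1.7e-05.

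An inhibitor of these enzymes was lower as well. TIMP1, the secreted inhibitor of metalloproteinases, had 64.8, 59.6, 66.0 and 62.6 CPM in TK, against 273, 239, 132 and 189 CPM in COM. All TK libraries lay below all COM libraries and below all Control libraries, which had 127 to 235 CPM with a median of 174. TIMP1 was 2.37-fold lower in TK than in COM (log2 -1.24 ± 0.14, adjusted p = 5.1e-05). Set against controls, the forms moved MMP1, MMP10 and MMP9 in opposite directions: MMP9 was lower in TK (log2 -1.69 ± 0.43, adjusted p = 0.011) and higher in COM (2.40 ± 0.21, adjusted p = 3e-06). TIMP1 fell in TK (-1.16 ± 0.12) and was not called in COM (0.08 ± 0.11, adjusted p = 0.71). Over the list, 1 member was higher and 10 were lower in TK against Control, and 7 were higher and none lower in COM against Control. Against COM C alone 12 members were called lower, 11 of them in all 3 fits, and the other called members included the tissue plasminogen activator PLAT (-1.03 ± 0.13), the urokinase receptor PLAUR (-0.90 ± 0.13), MMP2 (-0.84 ± 0.13) and MMP14 (-0.44 ± 0.08). Counting COM C with set 1 left 6 called members.

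AP-1, the dimer of FOS and JUN proteins, is a known activator of metalloproteinase and urokinase receptor genes and binds TGANTCA. The letters were searched on both strands in the 250 bases before the RefSeq start of each gene (RefSeq, GRCh38.p14). They were found in 4 of the 9 list members with such a window (44.4%), namely MMP10, PLAUR, SERPINB2 and MMP7. MMP1 and MMP9 had no such window and were not searched. MMP7 was not called, and SERPINB2 is among the genes that failed against COM C. Over the 10932 tested genes that have a window the share was 6.47%. It was 8.21% among genes called lower in TK and 4.71% among those called higher. The windows of MMP10 (chr11:102780629-102780878, minus strand) and PLAUR (chr19:43670170-43670419, minus strand) are shown 5′ to 3′ because both genes were called lower and hold the motif, in capitals, at 67 and 186 bases before the start. A match is only a run of letters and does not show that a factor binds there.
MMP10: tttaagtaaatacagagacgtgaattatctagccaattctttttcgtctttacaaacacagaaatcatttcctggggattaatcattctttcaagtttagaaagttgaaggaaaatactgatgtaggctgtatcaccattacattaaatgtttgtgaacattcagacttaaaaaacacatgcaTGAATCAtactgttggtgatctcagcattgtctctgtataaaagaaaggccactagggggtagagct
PLAUR: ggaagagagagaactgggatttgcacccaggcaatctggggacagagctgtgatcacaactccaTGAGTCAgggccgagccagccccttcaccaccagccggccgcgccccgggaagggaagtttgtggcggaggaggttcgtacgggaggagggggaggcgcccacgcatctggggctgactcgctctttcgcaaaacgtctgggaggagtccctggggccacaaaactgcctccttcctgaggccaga

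**Figure D2:**
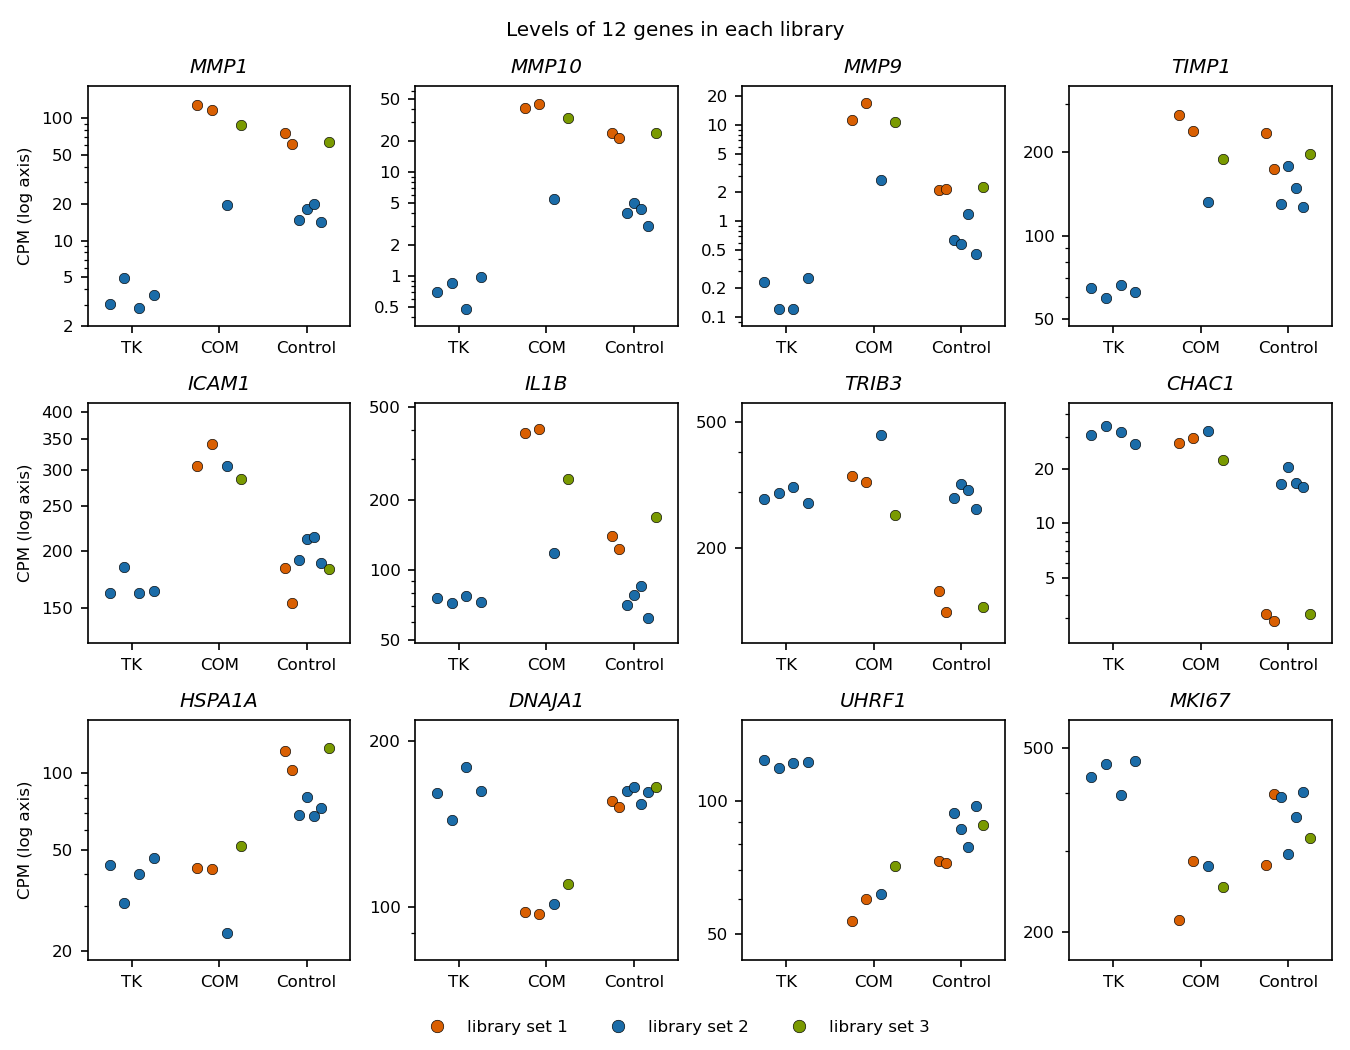
Levels of 12 genes in CPM, on log axes, in each library of TK, COM and Control, with each point 1 library coloured by library set. TK lies below every COM and Control library for MMP1, MMP10, MMP9 and TIMP1 and above every COM and Control library for UHRF1, while CHAC1 is low only in the controls of sets 1 and 3.

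Adhesion genes followed the same direction. Among 26 integrin, laminin and focal adhesion genes, 15 were lower in TK than in COM and none was higher (median -0.34), and 10 were called lower against COM C alone. ITGB3, the integrin beta 3 subunit that pairs with the alpha V and alpha IIb chains, had 63.4, 67.6, 65.4 and 73.5 CPM in TK A to D, against 146, 142, 122 and 151 CPM in COM A to D. Every COM library, and every Control library at 108 to 148 CPM, lay above every TK library. Its difference was -1.16 ± 0.12 (adjusted p = 2.6e-05), with -0.95 ± 0.09 for TK against Control and 0.21 ± 0.09 for COM against Control (adjusted p = 0.17). LAMB3, a beta chain of the laminin that anchors epithelial cells to their basement membrane, had 639.8, 613, 619.9 and 576 CPM in TK A to D, against 2197, 2191, 1082 and 1946 CPM in COM A to D, a mean of 612 ± 26.9 in TK against 1854 ± 528 in COM (SD, n = 4 each). It fell by 0.99 ± 0.13 on the log2 scale in TK relative to COM, and LAMA3, an alpha chain of the same laminin, had a difference of -0.79 ± 0.13. The fibronectin receptor subunit ITGA5 was -0.58 ± 0.08. With COM C counted in set 1, 7 members were called in place of 15.

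Fibronectin itself was among 4 lower members of 15 measured mesenchymal and matrix genes (median -0.21). FN1 had 75.3, 78.3, 64.7 and 83.0 CPM in TK A to D, against 171, 227, 124 and 201 CPM in COM A to D, without overlap, and Control libraries ran from 135 to 161 CPM. The difference was -1.03 ± 0.14 (adjusted p = 0.00016). VIM, the intermediate filament of mesenchymal and basal cells, was -0.36 ± 0.09 (adjusted p = 0.014) and lost its call without COM C (-0.36, adjusted p = 0.063). LOX, which crosslinks collagen, likewise was called (-0.34 ± 0.08) but not without COM C (-0.20, adjusted p = 0.21), and without that library 1 gene of this list was called. The hyaluronan receptor CD44, taken here among 22 genes of mineralization and calcium handling of which 6 were lower and none higher (median -0.14), was -0.47 ± 0.07. BMP2, an inducer of bone formation, was -0.96 ± 0.17, and ANKH, which exports pyrophosphate and so limits calcification, was -0.36 ± 0.07. SPP1, osteopontin, a phosphoprotein that binds calcium oxalate, was not called (1.68 ± 0.61, 95% interval 0.38 to 2.97, adjusted p = 0.076) and rested on 12 to 16 counts in TK libraries and 3 to 18 in COM libraries.

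Of 19 measured cytokines, chemokines and NF-kB targets, 9 were lower in TK than in COM, none was higher and 10 were not called, with a median of -0.37. Without COM C, 8 were called lower and 1 higher. Among those not called, the chemokine CXCL2 was 0.50 ± 0.19 (adjusted p = 0.091) in TK against COM. ICAM1, the adhesion molecule that leukocytes bind, had 162, 184, 162 and 164 CPM in TK A to D, against 306, 341, 306 and 286 CPM in COM A to D. The TK values fell within the range of the controls, 154 to 214 CPM with a median of 188, and the COM values lay above it. ICAM1 was 1.98-fold lower in TK (log2 -0.99 ± 0.10, adjusted p = 2.3e-05). For IL1B, the secreted interleukin 1 beta, TK A to D had 76.2, 72.0, 77.4 and 72.7 CPM, against 388, 401, 118 and 246 CPM in COM A to D. COM C was again the lowest COM library, and still above each TK library; Control C to F of the same set had 62.6 to 85.6 CPM. The IL1B difference was -0.97 ± 0.18 over all sets (adjusted p = 0.0022), -0.67 against COM C alone (adjusted p = 0.0084) and -1.23 without it. IL24, a cytokine of the interleukin 10 family, was -1.85 ± 0.28.

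Other cytokines differed less between the forms. LIF, an interleukin 6 family cytokine, was -0.50 ± 0.12 (adjusted p = 0.0094) and was not called against COM C alone (-0.26, adjusted p = 0.13). The neutrophil chemokine CXCL8 was -0.39 ± 0.12 (adjusted p = 0.037), and that call was lost without any 1 of 9 libraries, namely TK A, TK B, TK D, COM A, COM B and Control A, B, C and E. Both forms raised CXCL8 above controls, by 0.72 ± 0.09 in TK and 1.11 ± 0.09 in COM. PTGS2, the inducible cyclooxygenase of prostaglandin synthesis, had 47.1, 51.7, 51.6 and 50.2 CPM in TK A to D, against 59.5, 84.6, 51.4 and 49.8 CPM in COM A to D. These ranges overlap, and both lie above the 13.2 to 23.6 CPM of the controls. PTGS2 was higher than in controls by 1.39 ± 0.14 in TK and by 1.72 ± 0.13 in COM, and no difference between the forms was called (-0.33 ± 0.17, 95% interval -0.70 to 0.04, adjusted p = 0.23). Over the list, 11 members were higher and 1 lower in TK against Control, and 17 were higher and none lower in COM against Control. Only 4 of the 9 genes called lower in TK than in COM were called against COM C alone, namely ICAM1, IL1B, IL24 and IL1A.

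Immediate early genes and targets of the ERK kinase pathway were lower in TK in 14 of 28 cases and higher in none (median -0.23). EGR1, a zinc finger factor induced within minutes of growth factor stimulation, had 167, 182, 156 and 172 CPM in TK A to D, against 393, 324, 320.3 and 232 CPM in COM A to D. No TK library reached the lowest COM or Control library, the controls running from 262 to 351 CPM. EGR1 was lower in TK than in COM by a log2 difference of -0.84 ± 0.13 (adjusted p = 0.00069) and lower than in controls by -0.79 ± 0.11, whereas COM against Control was 0.04 ± 0.10 (adjusted p = 0.85). DUSP6, the phosphatase that feeds back on ERK, was -0.59 ± 0.09, the EGF receptor ligand EREG was -0.75 ± 0.12 and EGR3 was -0.90 ± 0.14. Of the list, 1 member was higher and 10 lower in TK against Control, and 8 were higher and 4 lower in COM against Control. Without COM C, 8 members were called lower and 1 higher.

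Targets of ATF4, the factor of the integrated stress response that drives amino acid synthesis and import, were called lower in TK in some fits and not in others. Of 22 measured, 11 were lower in TK than in COM and none higher (median -0.35), but 4 were called against COM C alone and 1 when the set term was left out. Without COM C 12 members were called lower and none higher (median -0.51). TRIB3, a pseudokinase induced by ATF4 and CHOP, had 285, 298, 310.2 and 278 CPM in TK A to D, against 337, 323, 455 and 254 CPM in COM A to D. The groups overlap through COM D. Control C to F had 266 to 318 CPM and the controls of sets 1 and 3 had 126 to 146 CPM, so that within each set the COM libraries stood above their controls. With the set term TRIB3 was -0.93 ± 0.12 (adjusted p = 0.00014), and against COM C alone it was -0.64 (adjusted p = 0.0026). ASNS, asparagine synthetase, was -0.84 ± 0.09 over all sets (adjusted p = 3.4e-05) and -0.66 against COM C alone. Against Control it was -0.34 ± 0.07 in TK and 0.50 ± 0.07 in COM. SESN2, a stress-induced inhibitor of mTORC1, was -0.66 ± 0.11, and DDIT3, which encodes CHOP, was -0.97 ± 0.21. For both genes the TK and COM libraries overlap. SESN2 averaged 48.1 CPM in TK and 47.7 CPM in COM, and its difference was 0.01 with no set term.

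CHAC1, a glutathione-degrading enzyme and ATF4 target, did not hold against COM C. It had 30.6, 34.6, 32.0 and 27.3 CPM in TK A to D, against 27.9, 29.8, 32.5 and 22.4 CPM in COM A to D, and these overlap. Its controls had 15.8 to 20.5 CPM in set 2 and 2.89 to 3.17 CPM in sets 1 and 3. COM minus Control was therefore 3.24, 0.91 and 2.82 on the log2 scale in sets 1, 2 and 3 (interaction test, adjusted p = 0.0014). The fitted TK minus COM difference of -1.15 ± 0.36 (adjusted p = 0.041) was -0.07 against COM C alone (adjusted p = 0.84), -2.27 without COM C, and lost its call in 13 of the 15 fits that each left out 1 library. SLC7A11, the cystine transporter, was not called (-0.33 ± 0.18, 95% interval -0.71 to 0.05, adjusted p = 0.25). Over the list, 7 members were higher and 3 lower in TK against Control, and 15 were higher and none lower in COM against Control. The ATF4 and CEBP composite site, TGATGNAA, was found in 3 of the 18 members with a window (16.7%), against 2.43% of tested genes. These were ASNS, CHAC1 and ATF3, of which ATF3 was not called and CHAC1 did not hold against COM C. The site was in 3.52% of genes called lower in TK and 1.73% of those called higher. The window of ASNS (chr7:97872409-97872658, minus strand) is shown since that gene was called in all 3 fits, with the site in capitals at 68 bases before the start.
ASNS: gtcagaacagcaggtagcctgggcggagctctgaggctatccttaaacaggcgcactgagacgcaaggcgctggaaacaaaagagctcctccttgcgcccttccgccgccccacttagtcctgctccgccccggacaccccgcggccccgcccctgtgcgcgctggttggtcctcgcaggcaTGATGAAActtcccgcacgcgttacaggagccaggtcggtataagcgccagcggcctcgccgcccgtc

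Heat shock proteins and their co-chaperones were higher in TK than in COM cells. Of 22 measured, 15 were higher and none was lower (median 0.39), 10 were called against COM C alone and 8 in all 3 fits. DNAJA1, an HSP40 co-chaperone of HSP70 (chr9:33025211-33039907, plus strand), had 161, 144, 179.6 and 162 CPM in TK A to D, against 98.1, 97.2, 101 and 110.1 CPM in COM A to D. The TK values lay on both sides of the controls, which had 152 to 165 CPM with a median of 162, and every COM library lay below both groups. DNAJA1 was 1.58-fold higher in TK (log2 0.66 ± 0.07, adjusted p = 4.7e-05). It was -0.64 ± 0.06 in COM against Control and 0.01 ± 0.06 in TK against Control. HSPH1, an HSP110 nucleotide exchange factor, rose by 0.79 ± 0.09 and AHSA1, which activates the HSP90 ATPase, by 0.63 ± 0.09.

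The stress-inducible HSP70 differed from these. HSPA1A, whose near-identical copy HSPA1B makes its count uncertain, had 43.4, 30.8, 40.1 and 46.3 CPM in TK A to D, against 42.6, 42.1, 23.5 and 51.9 CPM in COM A to D. The groups overlap, and both lie below each control library of 67.8 to 126 CPM. With the set term it was higher in TK by 0.63 ± 0.13 (adjusted p = 0.0038), and against COM C alone by 0.77 ± 0.18 (adjusted p = 0.022). Against Control it was lower in both forms, -0.82 ± 0.10 in TK and -1.45 ± 0.10 in COM. Over the list, 7 members were higher and 4 lower in TK against Control, and none was higher and 11 were lower in COM against Control. With COM C counted in set 1, 8 members were called.

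Heat shock factor 1 binds inverted repeats of nGAAn. The run GAANNTTCNNGAA, or its complement, was found in 7 of the 21 heat shock genes with a promoter window (33.3%), HSP90AA1, CHORDC1, HSPA8, HSPD1, HSP90AB1, DNAJB6 and HSPA6, and in 0.476% of tested genes. DNAJB6 and HSPA6 were not called. The run was in 1.49% of genes called higher in TK and 0.117% of those called lower. CHORDC1, a co-chaperone of HSP90, was higher in TK by 0.77 ± 0.17, and the inducible cytosolic chaperone HSP90AA1 by 0.43 ± 0.06. Against COM C alone the log2 differences were 0.33 for CHORDC1 and 0.47 for HSP90AA1. Their windows (chr11:90223050-90223299 and chr14:102087045-102087294, both minus strand) are shown because they hold the motif, in capitals; CHORDC1 has 3 overlapping matches.
CHORDC1: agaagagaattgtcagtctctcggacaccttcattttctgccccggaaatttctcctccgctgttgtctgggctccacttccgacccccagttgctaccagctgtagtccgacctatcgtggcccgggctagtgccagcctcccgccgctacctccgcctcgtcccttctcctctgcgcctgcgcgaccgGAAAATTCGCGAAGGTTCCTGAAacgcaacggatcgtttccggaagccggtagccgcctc
HSP90AA1: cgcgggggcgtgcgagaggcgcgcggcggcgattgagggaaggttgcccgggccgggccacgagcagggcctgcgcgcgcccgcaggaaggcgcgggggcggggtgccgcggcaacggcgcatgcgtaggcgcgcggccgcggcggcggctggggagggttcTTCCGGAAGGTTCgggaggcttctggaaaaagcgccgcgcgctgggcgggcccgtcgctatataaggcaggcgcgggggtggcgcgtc

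Of 17 genes for protein folding in the endoplasmic reticulum, 5 were higher, 2 were lower and 10 were not called (median 0.09). HSPA5, the BiP chaperone, was 0.42 ± 0.06, its co-chaperone DNAJB11 was 0.53 ± 0.07 and SDF2L1 was 0.89 ± 0.17 in TK against COM. For HSPA5 the TK and COM libraries overlap, and its difference was 0.16 with no set term. The lower members were HERPUD1 (-0.37 ± 0.09), which serves degradation of misfolded proteins, and the transcription factor XBP1 (-0.41 ± 0.10), neither of them a chaperone. Against COM C alone 4 of the 17 were called higher and none lower, HERPUD1 being -0.40 (adjusted p = 0.054) and XBP1 -0.22 (adjusted p = 0.29). Without COM C, 3 of the 17 were called higher and 1 lower.

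Genes of DNA replication and the G1 to S transition were higher in TK than in COM and than in untreated cells. Of 22 measured, 19 were higher in TK than in COM and none lower, with a median of 0.50, and 17 were called against COM C alone. UHRF1, which recruits the maintenance DNA methyltransferase to new DNA (chr19:4903080-4962154, plus strand), had 124, 119, 122 and 123 CPM in TK A to D, against 53.6, 60.2, 61.8 and 71.4 CPM in COM A to D. All TK libraries lay above all controls, which ran from 72.5 to 97.6 CPM with a median of 86.8, and all COM libraries lay below them. UHRF1 was 1.84-fold higher in TK (log2 0.88 ± 0.08, adjusted p = 1.6e-05), with 0.47 ± 0.07 for TK and -0.41 ± 0.06 for COM against Control. CDC6, which loads the replicative helicase, rose by 0.80 ± 0.09, and MCM4, a subunit of that helicase, by 0.65 ± 0.07. CLSPN, the checkpoint adaptor claspin, which stands among the largest rises, had 33.1, 32.2, 34.0 and 33.0 CPM in TK A to D, against 13.7, 14.2, 13.9 and 15.7 CPM in COM A to D, a difference of 1.13 ± 0.11 (adjusted p = 2.6e-05). Over the list, 16 members were higher and none lower in TK against Control, and none was higher and 12 were lower in COM against Control. Without COM C 16 members were called, 15 were called in all 3 fits, and 11 were called with COM C counted in set 1.

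E2F factors drive these genes at the entry to S phase. TTCCCGC or TTGGCGC, on either strand, was found in 12 of the 18 replication genes with a window (66.7%). These 12 include E2F1, RRM1 and CDT1, the 3 members of the list that were not called. The letters were in 189 of 807 genes called higher in TK (23.4%), in 109 of 853 called lower (12.8%) and in 15.3% of tested genes. The window of UHRF1 (chr19:4909251-4909500, plus strand) carries 1 match on each strand, in capitals, the first 104 and the last 14 bases before the start.
UHRF1: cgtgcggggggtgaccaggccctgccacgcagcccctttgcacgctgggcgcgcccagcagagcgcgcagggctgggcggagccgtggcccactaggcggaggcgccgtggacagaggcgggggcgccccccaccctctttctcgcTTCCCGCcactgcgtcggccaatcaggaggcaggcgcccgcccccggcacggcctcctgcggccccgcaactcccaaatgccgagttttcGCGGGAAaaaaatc

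Mitosis genes were lower in COM than in controls and close to controls in TK. Of 22 measured, 19 were higher in TK than in COM and none lower (median 0.39), yet 2 were higher and none lower in TK against Control, and 13 were lower and none higher in COM against Control. MKI67, the Ki-67 proliferation antigen, had 434, 463, 396 and 469 CPM in TK A to D, against 213, 285, 279 and 251 CPM in COM A to D. Every TK library lay above every COM library, with the controls at 279 to 402 CPM between and around them. The difference was 0.68 ± 0.14 (adjusted p = 0.004). KIF20A, a kinesin of cytokinesis, had 133 to 139.9 CPM in TK and 84.7 to 101 CPM in COM, against 120.0 to 142 CPM in Control, and was 0.53 ± 0.07 (adjusted p = 0.00023). CDC20, the activator of the anaphase promoting complex, was 0.43 ± 0.07, and the chromosomal kinase AURKB 0.41 ± 0.07. Against COM C alone 7 members were called, all higher, and 8 with COM C counted in set 1. In bulk RNA fewer cells of a kind and less RNA per cell cannot be told apart.

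Enzymes of cholesterol and fatty acid synthesis were higher in TK cells than in either COM or untreated cells. Of 24 measured, 13 were higher and 1 was lower in TK than in COM (median 0.28), and 14 were higher and 1 lower in TK against Control, whereas 1 was higher and none lower in COM against Control. LSS, lanosterol synthase, had 203, 207.5, 195 and 197 CPM in TK A to D, against 104, 105, 131 and 122 CPM in COM A to D. The COM values overlap the 96.9 to 133 CPM of the controls and the TK values do not. LSS was 1.77-fold higher in TK (log2 0.82 ± 0.09, adjusted p = 4e-05). HMGCS1, which makes the precursor of mevalonate, was 0.63 ± 0.09, and ACLY, which supplies cytosolic acetyl-CoA, was 0.48 ± 0.08. The HMGCS1 difference was 0.41 against COM C alone and 0.19 with no set term. HMGCS1 had 301 to 321 CPM in TK and 232 to 298 in COM. Control C to F had 178 to 208 CPM of it and Control A, B and G had 319 to 324. The lower member was SREBF2 (-0.25 ± 0.06), the factor that activates this pathway. Against COM C alone 6 of the 24 were called, all higher.

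**Figure D3:**
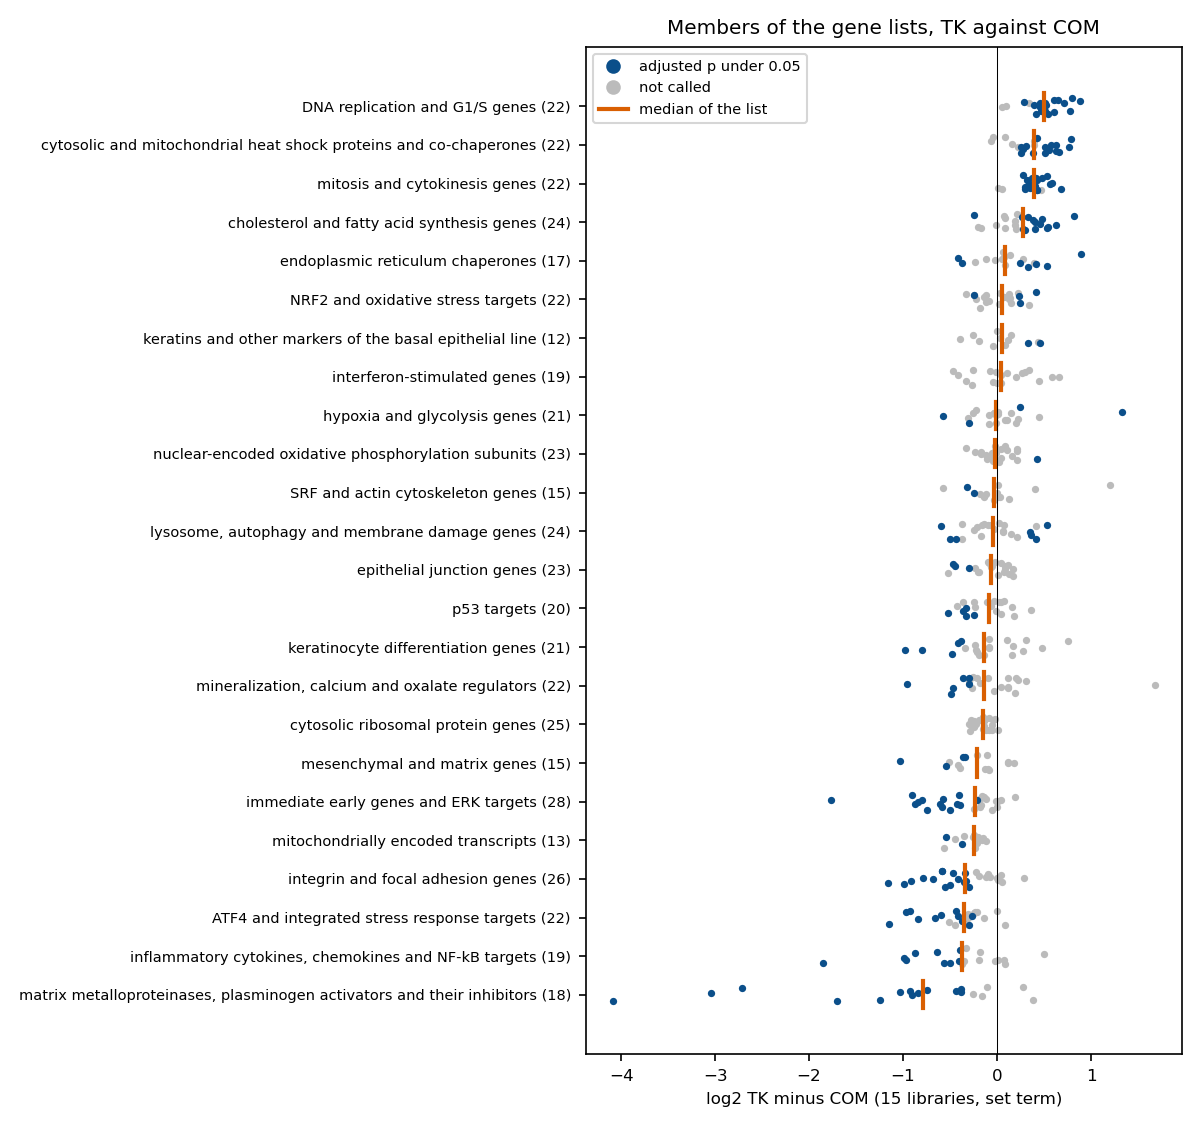
Log2 difference of TK minus COM for each member of 24 gene lists, 1 point per gene, blue where the adjusted p was under 0.05, with the list median in orange and the number of genes measured in brackets. Replication, heat shock, mitosis and cholesterol genes lie mostly to the right of 0, and matrix proteases, inflammatory genes, ATF4 targets and integrins mostly to the left.

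The remaining lists mostly held fewer calls. Of all genes tested 13.7% were called, 6.39% higher and 7.33% lower in TK. That share belongs beside the counts here and in the next paragraph, and the junction calls were near it. Of 23 junction genes 3 were lower and none higher (median -0.06): the desmosomal cadherin DSG3 (-0.45 ± 0.09), the tight junction proteins CLDN4 (-0.47 ± 0.10) and F11R (-0.30 ± 0.07). Against COM C alone CLDN4 was called (-0.45, adjusted p = 0.032), and DSG3 (-0.31, adjusted p = 0.082) and F11R (-0.15, adjusted p = 0.28) were not. CDH1, E-cadherin, was not called (-0.19 ± 0.08, 95% interval -0.36 to -0.03, adjusted p = 0.12), though without COM C it was (-0.32, adjusted p = 0.03). Of 21 keratinocyte differentiation genes 5 were lower (median -0.14), with the cornified envelope genes SPRR2A (-0.98 ± 0.15) and SPRR2D (-0.80 ± 0.12) first. Without COM C 3 were called. These are members of a family of close copies and uncertain for that reason. In COM against Control 12 of the 21 were higher, and in TK against Control 7. KRT5, the basal keratin, was not called (0.15 ± 0.08, 95% interval -0.02 to 0.32, adjusted p = 0.23).

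Among 20 p53 targets 5 were lower (median -0.08), DDB2 at -0.36 ± 0.09, PLK3 at -0.33 ± 0.08 and GDF15 at -0.52 ± 0.16 being 3 of them. GDF15 was the member called against COM C alone, and its call over all sets was lost in 6 of the 15 fits that each left out 1 library; without COM C 2 members were called, PLK3 not among them. Lysosome and autophagy genes gave 4 higher and 3 lower of 24 (median -0.04), the cathepsin CTSB at -0.50 ± 0.11 and the galactosidase GLA at 0.53 ± 0.11. Against COM C alone CTSB was -0.31 and GLA 0.70. Without COM C, 2 of the 24 were called and GLA was not. Of 22 NRF2 targets 3 were higher and 1 was lower (median 0.05), and without COM C none was called; HMOX1, the heme oxygenase of oxidative stress, was 0.13 ± 0.24 (95% interval -0.37 to 0.64, adjusted p = 0.77). Hypoxia genes gave 2 higher and 2 lower of 21 (median -0.01), and none was called against COM C alone. No interferon-stimulated gene of 19 and no ribosomal protein gene of 25 was called, with medians of 0.04 and -0.15. Mitochondrially encoded transcripts, of which 2 of 13 were lower (median -0.25), had 7 lower against COM C alone (median -0.62) and none without it (median 0.12). The mitochondrial share of counts in COM C, given above, was higher than in any other library of its set; its part in these calls was not tested.

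Several of the largest differences lay outside the lists. Among genes averaging at least 5 CPM, large falls in TK besides the metalloproteinases included FAM131B (-1.67 ± 0.20), CAMK2B (-1.60 ± 0.19), a subunit of calcium and calmodulin dependent kinase II, and APOBEC3G (-1.51 ± 0.18), a cytidine deaminase that restricts retroviruses. CAMK2B had 14.1, 9.30, 11.6 and 10.7 CPM in TK A to D, against 28.9, 23.3, 35.6 and 24.9 CPM in COM A to D, with no overlap. It was lower than in controls in TK (-1.73 ± 0.16) and not called in COM (-0.12 ± 0.14, adjusted p = 0.66). APOBEC3G had 8.85, 6.22, 8.38 and 6.21 CPM in TK, against 70.1, 55.1, 20.4 and 54.5 CPM in COM. ADM2, the peptide hormone intermedin, was -1.44 ± 0.20, the actin-binding CORO2B -1.39 ± 0.21 and the cadherin CDH4 -1.39 ± 0.22. CBSL was -1.63 ± 0.28 but is uncertain, since it is nearly identical to CBS.

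The largest rises were smaller, and several were in genes of the dividing cell. FAM111B rose by 1.14 ± 0.14, PSMC3IP, a partner in homologous recombination, by 0.97 ± 0.15 and the kinetochore protein ZWINT by 0.88 ± 0.08. ABCC2, an export pump for conjugated organic anions, had 35.5, 40.1, 33.0 and 37.8 CPM in TK A to D, against 7.82, 7.16, 19.9 and 8.52 CPM in COM A to D. COM C was again nearest to TK, and the controls of set 2, at 19.9 to 25 CPM, also lay above those of sets 1 and 3, at 9.03 to 11.4 CPM. ABCC2 was 0.95 ± 0.11 (adjusted p = 6.7e-05). STS, steroid sulfatase, was 0.88 ± 0.16 and SMAD6, an inhibitor of BMP signalling, 0.89 ± 0.17. For STS the groups overlap, at 6.94 to 9.02 CPM in TK and 4.25 to 9.57 CPM in COM. Its difference was 0.14 with no set term. CU633967.1, a long noncoding RNA with the largest rise among genes averaging at least 5 CPM (2.02 ± 0.52), ARHGAP11B (0.99 ± 0.25) and KRT4 (0.87 ± 0.24) lost their calls without COM C, and KRT4 also without TK A. ARHGAP11B is nearly identical to ARHGAP11A and uncertain.

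**Figure D4:**
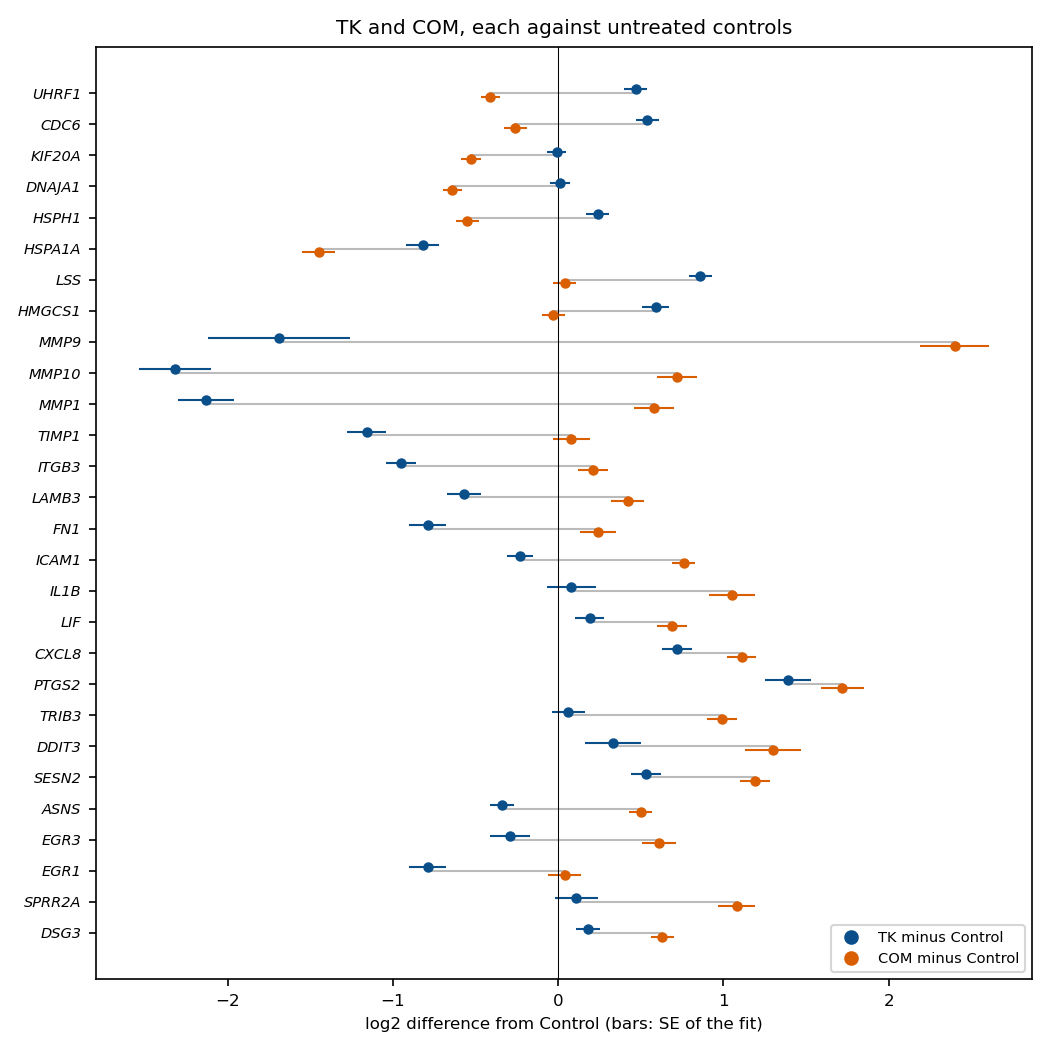
Log2 difference from Control of 28 genes in TK (blue) and in COM (orange), with bars of 1 SE from the fit with the set term; both share the same control libraries. Replication and heat shock genes have TK to the right of COM, proteases, adhesion and stress genes have TK to the left, and PTGS2 and CXCL8 lie to the right of 0 in both.

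Of the 79 called genes named by the rule, 78 had all 4 TK libraries on 1 side of COM C with the same sign, 65 were called against COM C alone, 66 without COM C and 56 in all 3 fits; the rule itself required that side of the largest rises and falls. Among those called in all 3 were MMP1, MMP10, MMP9, TIMP1, ITGB3, FN1, ICAM1, IL1B, TRIB3, ASNS, UHRF1, CDC6, CLSPN, DNAJA1, HSPH1, MKI67 and LSS. Counting COM C with set 1 removed the calls of 29 genes named by the rule, MMP10 among them. A block for the replicate letter beside the set term removed those of 23. Apart from hepatocyte transcripts, markers of other cell types were low in each group. Hepatocyte transcripts summed to 53.8 to 68.6 CPM in TK, 104 to 193 in COM and 80.8 to 173 in Control, with 8, 6 and 8 of 8 detected, APOC3 and TTR being at 0 in COM, and SERPINA1 alone of them was called (-0.99 ± 0.12). Leukocyte markers summed to 6.68 to 7.69 CPM in TK, 8.74 to 23.8 in COM and 8.19 to 20 in Control, with CD3E, MS4A1, TYROBP and AIF1 at 0 in TK and COM and PTPRC also at 0 in COM, and CD68 was called lower (-0.97 ± 0.26). Fibroblast markers stayed at or under 15.4 CPM, endothelial at or under 14.5, adipocyte at or under 1.38 and erythroid at or under 0.378 CPM in any library. Their part in the results was not tested.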

How the data were processed

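Polyadenylated RNA from 15 libraries (4 TK, 4 COM, 7 Control) was analysed. The authors deposited RSEM expected counts for 60683 genes per library, with TPM values and gene lengths beside them; Trim Galore, Bowtie2, RSEM and GRCh38 are named per the submitters' processing notes. Versions, strand setting and annotation: not given in the sources used here. Thus overlapping antisense genes cannot be told apart. Expected counts deposited by the authors (10.5 to 17% of values per library not whole) were rounded. The deposited TPM values and lengths were not tested. Genes passing filterByExpr (15640) were scaled by TMM and tested with edgeR's quasi-likelihood test, two-sided, with terms for group and library set, in R 4.3.3 with edgeR 4.0.16 and limma 3.58.1; p-values were adjusted by Benjamini-Hochberg over all genes, with a threshold of 0.05. CPM are TMM-scaled and not adjusted for set. Intervals are 95%. DESeq2 1.42.0 was an alternative, as were other scaling, no filter, other set terms, other libraries, a replicate block and leaving out each library; COM C counted with set 1 was added after seeing the data. The script was tested on simulated data. Gene positions are from the GENCODE annotation, which held 15476 of the 15640 genes (99.0%).

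Members and gene lists were chosen with earlier results of these data known. The text names, among called genes, the 12 that rose most and the 12 that fell most of those averaging at least 5 CPM with all TK libraries on that side of COM C, up to 3 called genes with the smallest p from each list with at least 3 called, and a followed set. The rule selects 87 genes, of which 2 are not reported here. Others that are named, such as list members beyond those 3, marker genes and the genes failing against COM C, were chosen after their values were seen. Replicate letters were not used as pairs: same-letter TK and COM libraries had correlations of deviations of 0.106, 0.022, -0.01 and 0.028. No pair of replicates agreed within sampling noise.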

Additional observations from a re-analysis of the deposited data

Results flagged for a closer look

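Levels of the named genes were screened for a library set far apart from the rest of its own group, judged by its gap relative to the group's range. Chance flags about 1 in 20 groups, and 13 of 255 groups were marked. All values are CPM. In TK libraries, ADM2 had 17.1 in TK B, with the others at 13.4 to 14. CXCL8 had 200.9 in TK C, with the others at 172.8 to 176.4. TK B stood highest for DUSP6 at 311.0 (others 293.4 to 294.5), for ICAM1 at 184.3 (others 161.9 to 163.9) and for LIF at 480.4 (others 437.6 to 444.5). KIF20A had 139.9 in TK D (others 133.4 to 134.0), and SDF2L1 had 36.4 in TK C (others 29.9 to 30.9). In COM libraries, COM C had 19.9 for ABCC2 (others 7.16 to 8.52) and 2737.5 for KRT5 (others 2041.4 to 2109.0). In Control libraries, Control B had 78.8 for ANKH (others 86.8 to 92.6) and 160.9 for FN1 (others 134.7 to 145.8), Control G had 123.2 for CDC20 (others 154.5 to 169.1), and Control A had 1172.6 for VIM (others 838.6 to 964.3).

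CHAC1 was marked because COM minus Control differed between library sets in the interaction test (adjusted p = 0.0014).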

How the results depend on the processing

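The TK against COM count of 2147 genes (1000 higher, 1147 lower) stayed within 1.5 times under RLE scaling, no filter, DESeq2, all 27 libraries and a set term of 2 levels, with 1741 to 2563 called. It was 3992 (1854 higher, 2138 lower) with no set term, 4371 (2127, 2244) in TK and COM libraries alone, 3998 (1898, 2100) with fragment length in place of the set, 997 (471, 526) against COM C alone, and 764 (338, 426) with COM C counted with set 1, an alternative chosen after seeing the data. Leaving out 1 library gave 1557 (without COM C) to 2495 (without Control D), 722 to 1196 higher and 835 to 1299 lower. Samples share only a replicate letter, and not every sample correlated best with its own letter. With that letter as a replicate block the count was 622 (254, 368) beside the set term and 4297 (2130, 2167) in TK and COM libraries alone. The COM effect by set called 1 gene, 233 with no filter and 4 in sets 1 and 2 only. Without a set term, signs turned for SESN2 (0.01 over 15 libraries, 0.01 in TK and COM alone, 0.04 with the block there), CHAC1 (0.14, 0.15, 0.15), SLC7A11 (0.01, 0.02, 0.02) and HMOX1 (-0.04, -0.04, -0.03); the cause was not tested. Depth limits the fold of genes with few counts in TK, such as MMP9.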
